A study of Homo sapiens with 4 samples.

Results

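The study used ChIP-seq, in which chromatin is immunoprecipitated and its DNA sequenced, to ask where RNA polymerase II (Pol II) lay along genes after knockdown of RRN3. The cells were SK-OV-3, an established human ovarian cancer line. They carried either shRRN3, a short hairpin RNA against RRN3, or shLacZ, a control hairpin against a bacterial gene. The labels listed 4 samples, and for each hairpin these were a Pol II library and its input, the chromatin before immunoprecipitation. Input libraries were not used here. The regions described are the promoter peaks found in the shLacZ list and in no overlapping position of the shRRN3 list. A shLacZ peak on chromosomes 1 to 22 or X was taken when its midpoint lay within 1 kb of the transcription start site (TSS) of a protein-coding gene, and when it had no base in common with any shRRN3 peak. Of 1324 shLacZ promoter peaks, 219 met both conditions (16.5%, exact 95% interval 14.6 to 18.7), and the other 1105 were shared with shRRN3. The interval covers counting error and not the settings, since the share was 43.4% against a shRRN3 list cut to the length of the shLacZ list, 43.6% when a match required 50% of each peak, and 9.90% among shLacZ scores at or above the median. The peaks were thus chosen by the measured peak calls of both libraries, and their lack of overlap is a description and not a result. Each hairpin had 1 library, so replicate error is unknown for every difference and no p-value was computed. The intervals cover counting error over peaks only, treat peaks as independent and compare these libraries rather than the conditions.

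Pol II transcribes protein-coding genes. At many of them it starts at a promoter rich in CG dinucleotides, then pauses shortly downstream of the TSS before it is released into the gene body, so a Pol II ChIP-seq peak near a TSS can hold initiating and paused polymerase alike. A peak call marks a place where reads passed a threshold of the peak caller, and a place just under that threshold is absent from the list. RRN3 is an initiation factor of RNA polymerase I, the enzyme that transcribes ribosomal RNA genes. The COMMD3 and BMI1 genes, a pair of neighbours whose transcripts can be joined by readthrough, were used by the study to follow the end of transcription.

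The whole lists held 4014 peaks in shLacZ and 14363 in shRRN3, and promoters of protein-coding genes held 1324 and 4372. The deposited peak score, read here as −log10 of the caller's p multiplied by 10, started at 50.03 in shLacZ and at 50 in shRRN3. Read counts are not part of a peak list, so depth is unknown here. Depth, the yield of the immunoprecipitation and the hairpin cannot be told apart as sources of the longer shRRN3 list. Among 11 genes fixed as markers of the line, PAX8, a transcription factor of Müllerian epithelium, was the only one with a shLacZ promoter peak, and it was shared with shRRN3, while 6 had a shRRN3 promoter peak and ERBB2, KRT7, KRT19, MUC16 and WT1 had none in either list. Of 10 genes that mark other cell types, none had a shLacZ promoter peak and SYP, a synaptic vesicle gene, had a shRRN3 peak of 51.48.

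GC content over all 219 unmatched promoter peaks ran from 31.5% to 86% in the 200 bp around the midpoint. The sequences below are examples of this base composition, a feature in which the unmatched peaks differed from the shared ones. Each is the 200 bp around the midpoint of a peak, read from hg38, written 5′ to 3′ in the sense of the gene, with every CG dinucleotide in capitals. BMI1 (chr10:22320809-22321008, plus strand) and RANBP9 (chr6:13711850-13712049, minus strand) had a GC content of 78% and 82%, with 33 and 37 CG dinucleotides. HOMER1 (chr5:79514231-79514430, minus strand) and GALNT10 (chr5:154190310-154190509, plus strand) had 76% and 72.5%, each with 22 CG dinucleotides. FAR1 (chr11:13667946-13668145, plus strand) and PHGDH (chr1:119648736-119648935, plus strand) had lower values, at 58% and 44% with 11 and 6 CG dinucleotides. ID1 (chr20:31605074-31605273, plus strand), which encodes an inhibitor of basic helix-loop-helix transcription factors, is given as a high-scoring shared peak, at 64.5% with 15 CG dinucleotides. These 7 were chosen after their values were seen.
BMI1: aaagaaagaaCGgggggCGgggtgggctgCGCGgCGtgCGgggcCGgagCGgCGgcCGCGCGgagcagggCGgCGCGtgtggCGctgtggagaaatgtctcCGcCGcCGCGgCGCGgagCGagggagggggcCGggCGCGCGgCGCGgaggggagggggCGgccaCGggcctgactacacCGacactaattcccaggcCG
RANBP9: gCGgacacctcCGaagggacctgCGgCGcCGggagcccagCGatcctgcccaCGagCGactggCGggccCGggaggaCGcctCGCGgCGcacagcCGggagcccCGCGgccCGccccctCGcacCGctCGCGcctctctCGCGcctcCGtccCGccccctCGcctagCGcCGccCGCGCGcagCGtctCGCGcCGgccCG
HOMER1: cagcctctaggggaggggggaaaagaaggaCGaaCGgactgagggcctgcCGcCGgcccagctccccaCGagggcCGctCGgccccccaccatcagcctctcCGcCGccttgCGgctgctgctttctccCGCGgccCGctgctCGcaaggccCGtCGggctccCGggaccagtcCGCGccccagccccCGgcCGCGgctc
GALNT10: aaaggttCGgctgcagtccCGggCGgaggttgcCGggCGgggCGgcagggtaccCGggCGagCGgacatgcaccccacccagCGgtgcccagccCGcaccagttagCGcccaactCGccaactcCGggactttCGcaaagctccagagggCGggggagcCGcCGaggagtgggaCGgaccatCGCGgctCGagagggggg
FAR1: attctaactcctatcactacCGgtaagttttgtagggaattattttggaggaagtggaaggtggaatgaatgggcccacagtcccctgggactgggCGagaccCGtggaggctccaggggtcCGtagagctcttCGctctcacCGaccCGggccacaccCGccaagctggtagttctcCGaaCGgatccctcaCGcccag
PHGDH: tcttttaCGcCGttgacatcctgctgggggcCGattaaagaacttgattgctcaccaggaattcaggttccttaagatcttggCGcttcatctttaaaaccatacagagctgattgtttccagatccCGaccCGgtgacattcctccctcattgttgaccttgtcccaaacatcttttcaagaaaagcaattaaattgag
ID1: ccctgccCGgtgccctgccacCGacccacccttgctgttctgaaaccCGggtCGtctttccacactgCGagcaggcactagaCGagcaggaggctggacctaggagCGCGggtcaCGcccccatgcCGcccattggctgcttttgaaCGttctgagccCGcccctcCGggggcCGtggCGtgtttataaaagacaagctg

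The unmatched peaks were mostly low-scoring peaks of the shLacZ list. Their scores ran from 50.19 to 144.95 with a median of 60.3 and quartiles of 54.7 and 70.1, while shared promoter peaks ran from 50.05 to 823.65 with a median of 73.2. Their median percentile within the shLacZ list was 39.2, against 60.6 for shared promoter peaks, and their median width was 372 bp against 501 bp. The share of promoter peaks left unmatched was 29.4% when the score was in the lowest quintile and 2.64% when it was in the highest. Among the 94 promoter peaks that scored at least 150, 0 were unmatched, which allows a share of up to 3.19%. Score and overlap both depend on the peak calls, so these values describe the regions and test nothing.

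The highest-scoring unmatched peak lay at ATF7IP, which encodes a partner of the histone methyltransferase SETDB1. This peak (chr12:14365632-14366045) scored 144.95, its midpoint was 163 bp downstream of the TSS in an intron, and the nearest shRRN3 peak was 50653 bp away within the same gene. BMI1, a subunit of Polycomb repressive complex 1, followed with 131.29 at chr10:22320737-22321081, centred 190 bp upstream of its TSS. The midpoint of this peak fell in an intron of another annotated protein-coding gene. The PNPLA8 peak scored 117.96, lay 70 bp downstream of the TSS in a UTR exon and had the TSSs of THAP5 and DNAJB9 within 1 kb too. PNPLA8 encodes a phospholipase and DNAJB9 a chaperone cofactor of the endoplasmic reticulum. Its nearest shRRN3 peak was 573335 bp away, the longest gap among the 20 highest-scoring peaks.

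The rest of the 20 highest-scoring peaks, taken by score alone, form no tested group. Among them the peaks at DOT1L, COQ5 and PHGDH had at least 1 further protein-coding TSS within 1 kb. These included the TSSs of AP3D1, RNF10 and ZNF697, in that order. DOT1L, the methyltransferase of lysine 79 on histone H3, had a peak of 89.58 centred 75 bp upstream of its TSS, where the GC content was 79.5%. POGZ, a zinc finger protein that binds heterochromatin protein 1, had a peak of 96.45 in a coding exon 307 bp downstream of the TSS. The peak at RNF130, an E3 ubiquitin ligase gene, scored 92.7, and the peak at OTUD3, a deubiquitinase gene, scored 86.34. RANBP9, a scaffold of the CTLH ubiquitin ligase complex, had a peak of 92.38 whose nearest shRRN3 peak lay 11281 bp away. FAR1 makes fatty alcohols from acyl-CoA, and its peak of 90.91 was centred 622 bp upstream of the TSS, the farthest upstream of the 20.

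PAPOLG, a nuclear poly(A) polymerase, had a peak of 115.92 centred 137 bp downstream of its TSS, at a GC content of 51.5%. No shRRN3 peak lay in the PAPOLG gene or the 2 kb around it, and the nearest was 124278 bp away. At FGFR1, a receptor tyrosine kinase gene, the peak scored 93.44 and a shRRN3 peak of 185.68 lay within the gene, 62451 bp from it. HOMER1 (107.95), which encodes a postsynaptic scaffold, MBLAC2 (117.72), a gene of the metallo-beta-lactamase fold, and COQ5 (88.72), a methyltransferase of coenzyme Q synthesis, had no shRRN3 peak in the gene or the 2 kb around it. GALNT10, which starts mucin-type O-glycosylation, had 102.14 with a shRRN3 peak of 79.14 in its gene body. The peak at SYS1-DBNDD2, an annotated readthrough gene, scored 98.18.

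**Figure D1:**
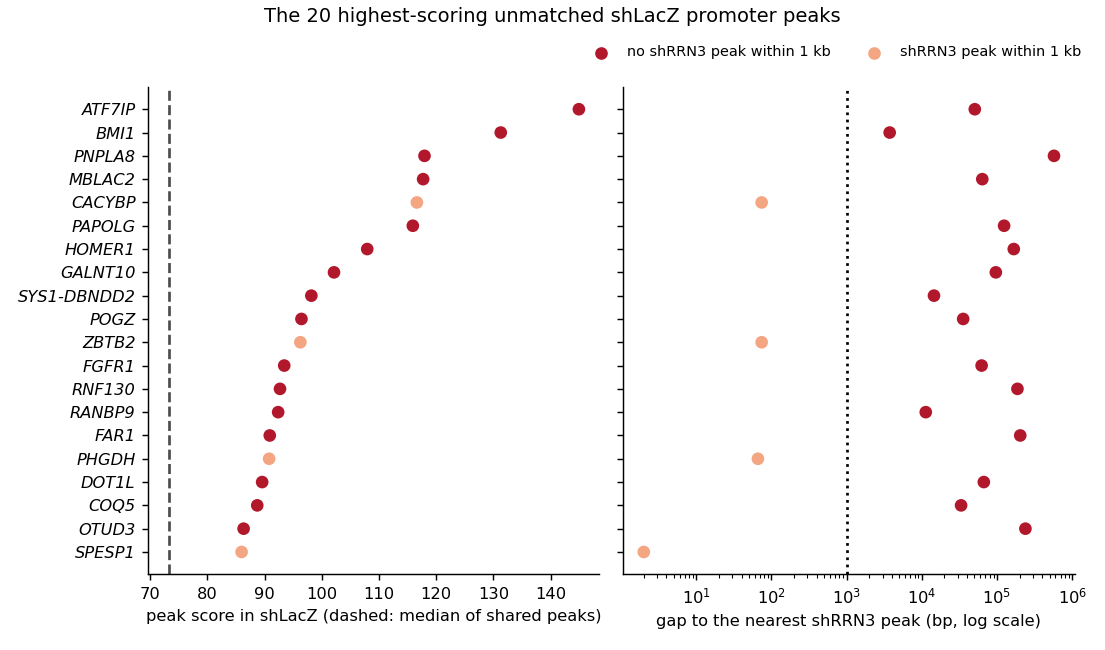
Scores (left, horizontal axis, deposited score with no unit) and gaps to the nearest shRRN3 peak (right, bp, log scale) of the 20 highest-scoring unmatched shLacZ promoter peaks, 1 point per peak, named by the nearest gene. All 20 lie above the median score of shared promoter peaks (73.2, dashed), and CACYBP, ZBTB2, PHGDH and SPESP1 lie left of the 1 kb line (dotted).

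At CACYBP, ZBTB2, PHGDH and SPESP1 a shRRN3 peak lay within 1 kb but did not overlap. The CACYBP peak (116.63) was centred 867 bp downstream of the TSS, and 74 bp separated it from a shRRN3 peak of 100.9 that was centred 288 bp downstream. CACYBP encodes an adaptor of ubiquitin ligases. PHGDH, the first enzyme of serine synthesis from glycolytic intermediates, had its shLacZ peak 425 bp downstream of the TSS and a shRRN3 peak of 82.58 at the TSS side of it, 66 bp away. At ZBTB2, a zinc finger regulator of transcription, the order was the other way round. The shLacZ peak of 96.26 was centred 813 bp downstream of the TSS and the shRRN3 peak 1636 bp downstream, with a gap of 74 bp between them. SPESP1, a sperm protein gene, had a gap of 2 bp, the smallest of all.

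The gap to the nearest shRRN3 peak ran over several orders of magnitude. It was at most 100 bp for 12 peaks and up to 1000 bp for another 29, which together make 41 near peaks (18.7%, 13.8 to 24.5). It lay between 1000 and 10000 bp for 30 peaks, reached up to 100000 bp for 95 and was longer for 53, with a median of 31526 bp over all 219. The 178 peaks with no shRRN3 peak within 1 kb are called far peaks. Near and far peaks had almost equal median scores, 59.9 and 60.4.

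The selection was made by the position of peaks and not by gene. The 219 peaks lay within 1 kb of the TSSs of 252 genes, which is 16.6% of the 1514 genes with a shLacZ promoter peak. The nearest genes numbered 217, since JADE1 and WWC2 had 2 unmatched peaks each. JADE1 belongs to a histone acetyltransferase complex, and WWC2 is a WW domain gene of the Hippo pathway. Of the 252 genes, 10 also had a shared shLacZ promoter peak, and 42 (16.7%, 12.3 to 21.9) had the midpoint of some shRRN3 peak within 1 kb of the TSS. A shRRN3 peak lay in the gene or the 2 kb around it for 115 genes (45.6%, 39.4 to 52.0) and none lay there for 137. The share of all protein-coding genes by that rule is not given here, so 45.6% cannot be read as high or low. The selection itself used the overlap with shRRN3 peaks, so these shares are a description. Over all 19970 protein-coding genes, 4754 had a shRRN3 promoter peak.

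Near and far peaks were split by the gap that the selection used, and a peak close to a shRRN3 peak at a TSS but not overlapping it must lie to its side, so their positions are given as a description. The median midpoint was 428 bp downstream of the TSS for near peaks, 44.5 bp for far peaks and 44 bp for shared peaks. More than 250 bp downstream lay 25 of 41 near peaks (61.0%) and 30 of 178 far peaks (16.9%), beside 16.7% of shared peaks. Of the near peaks, 23 lay downstream of the shRRN3 peak next to them and 18 upstream, and 20 were closer to the TSS than it. Another shLacZ peak lay within 1 kb of 10 near peaks (24.4%), of 5 far peaks (2.81%) and of 140 shared peaks (12.7%). GPX8, which encodes an endoplasmic reticulum peroxidase, shows the arrangement of those 23, with a shLacZ peak of 84.12 centred 832 bp into the gene and a shRRN3 peak of 189.43 centred 15 bp from the TSS. These genes were named after their values were seen, as was UAP1 of the amino sugar pathway, with 84.47 at 428 bp and a shRRN3 peak of 202.2 on its TSS side.

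**Figure D2:**
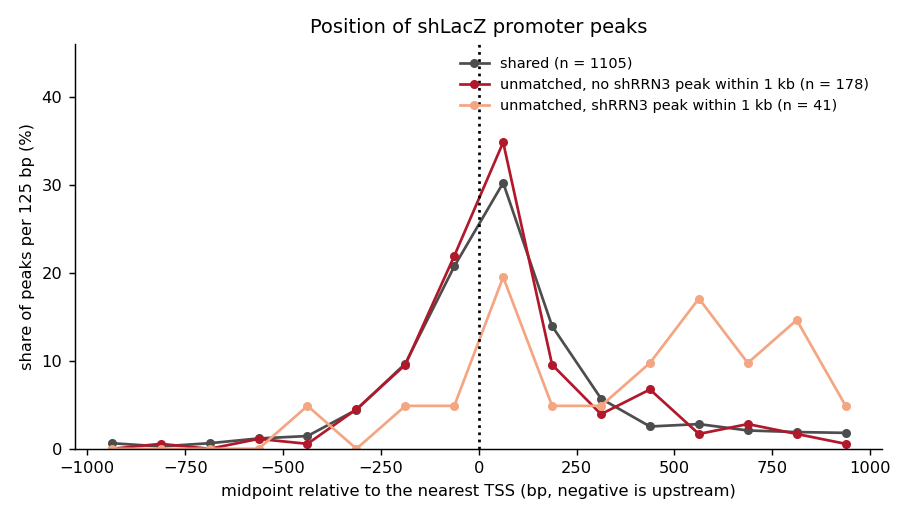
Share of peaks (vertical axis, percent per 125 bp) by the position of the midpoint relative to the nearest TSS (horizontal axis, bp, negative is upstream) for 1105 shared, 178 far and 41 near shLacZ promoter peaks. Shared and far peaks are centred just downstream of the TSS, with medians of 44 and 44.5 bp, whereas the near peaks spread into the gene.

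Taken as a whole, 33.8% of unmatched peaks and 39.0% of shared peaks lay upstream of the TSS, a difference of −5.21 percentage points whose Newcombe 95% interval (−11.8 to 1.87) includes 0. With the starts of all protein-coding transcripts the difference was −6.09 points and its interval (−12.0 to −0.0529) excluded 0. More than 250 bp downstream lay 25.1% of unmatched and 16.7% of shared peaks. Of promoter peaks found in shRRN3 alone, 22.3% lay that far downstream, and the unmatched peaks differed from them by 2.83 points (−2.64 to 9.13). Upstream of the TSS lay 44.65% of these shRRN3 peaks, and there the unmatched peaks differed by −10.9 points (−17.0 to −4.15). The lack of overlap with shRRN3 peaks, many of which lie at TSSs, bears on these positions, and its part was not tested. By the annotation at the midpoint, 90 unmatched peaks lay in UTR exons, 57 outside protein-coding genes, 46 in introns, 21 in coding exons and 5 in other exons. None of these shares differed from that of shared peaks beyond counting error, and the widest gap was that for midpoints upstream, −5.83 points (−11.9 to 0.917).

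Base composition set the unmatched peaks apart from the shared ones. The median GC content of the 200 bp around the midpoint was 69.5% in unmatched peaks, 64.5% in shared peaks, 64.5% in the 3299 promoter peaks found in shRRN3 alone and 63.5% at the TSSs of all 19970 protein-coding genes. A GC content of 75% or more was found in 57 of 219 unmatched peaks (26.0%, 20.3 to 32.4) and in 128 of 1105 shared peaks (11.6%, 9.76 to 13.6), which differ by 14.4 points (Newcombe interval 8.71 to 20.9). Against the peaks found in shRRN3 alone (10.5%) the difference was 15.5 points (10.1 to 21.8). Of all protein-coding TSSs, 16.9% reached 75%. The genes with such peaks included BMI1 (78%), HOMER1 (76%), FGFR1 (77.5%), RNF130 (75.5%), RANBP9 (82%), DOT1L (79.5%) and COQ5 (76%) among the 20 highest scores.

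**Figure D3:**
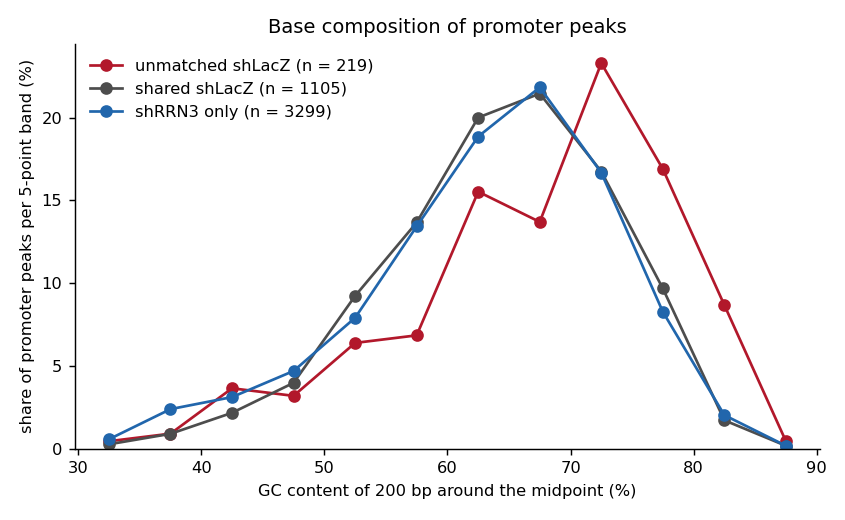
Share of promoter peaks (vertical axis, percent) in bands of 5 percentage points of GC content (horizontal axis, 200 bp around the midpoint) for unmatched shLacZ, shared shLacZ and shRRN3-only peaks. The curves of the 1105 shared and 3299 shRRN3-only peaks nearly coincide, and that of the 219 unmatched peaks lies to their right, with medians of 64.5%, 64.5% and 69.5%.

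Most of the GC-rich unmatched peaks were far peaks. Of the far peaks 54 of 178 (30.3%) reached 75%, which is 18.8 points above the shared peaks (12.2 to 26.1), and of the near peaks 3 of 41 did (7.32%). The split into near and far rests on the gap that the selection used, and near peaks lay farther into the gene, so these values are set side by side without a test. At the other end, 12 near peaks (29.3%) and 6 far peaks (3.37%) were under 50% GC. The near peaks under 50% included PHGDH (44%), GPX8 (42%), H2BC3 (45%), a histone H2B gene, and IL18 (36%), a cytokine gene. CpG island criteria, here a GC content of at least 50% and an observed over expected CG ratio of at least 0.6 in 200 bp, were met by 85.4% of unmatched and 84.6% of shared peaks (0.773 points apart, −4.88 to 5.42). Within the unmatched peaks they were met by 61.0% of the near and 91.0% of the far ones.

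Read the other way, the unmatched share of promoter peaks depended on GC content. It was 10.3% (29 of 282) between 50% and 60% GC and 12.3% (64 of 522) between 60% and 70%. From there it went up to 21.6% (51 of 236) between 70% and 75%, to 25.7% (37 of 144) between 75% and 80% and to 48.8% (20 of 41, 32.9 to 64.9) at 80% or more. Below 50% GC it was 18.2% (18 of 99). In each quintile of the scores the unmatched share was higher at a GC content of 75% or more than below it. In the lowest quintile it was 40.9% against 27.1%, and in the fourth quintile 21.9% against 9.44%. Within a single quintile the intervals of these shares were wide, and in the highest quintile 2 of 22 GC-rich peaks were unmatched (9.09%, 1.12 to 29.2).

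**Figure D4:**
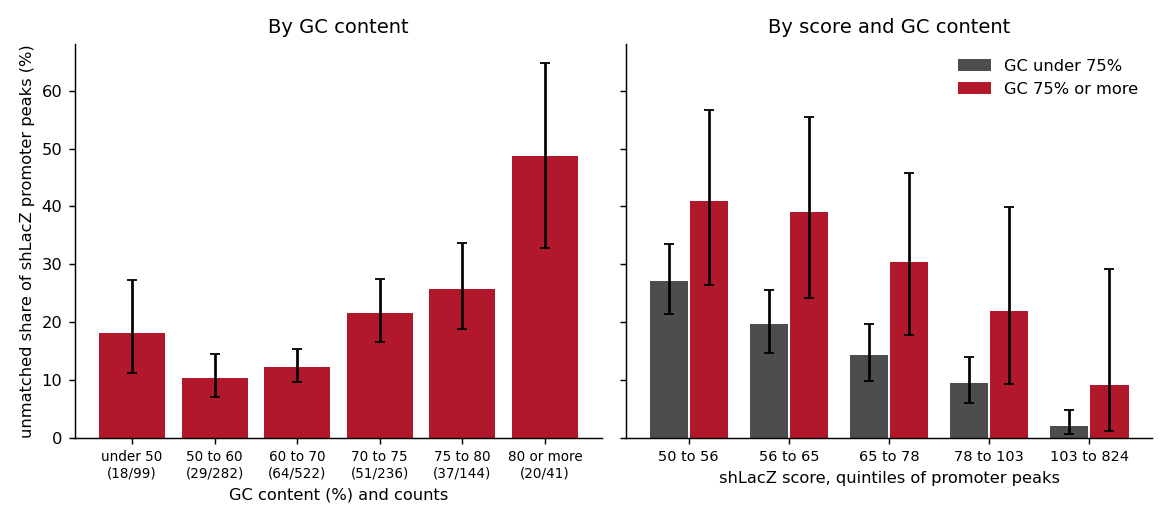
Unmatched share of shLacZ promoter peaks (vertical axis, percent, from 0) by GC content (left, with counts) and by quintile of the shLacZ score, split at 75% GC (right); error bars are exact 95% intervals. The share reaches 48.8% at 80% GC or more, and in each quintile of the scores the GC-rich bar is the higher one.

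At shLacZ peaks outside promoters the pattern differed most at low GC content. Of these 2592 peaks, 1103 were unmatched (42.6%), and the share was highest under 50% GC, at 49.3% (958 of 1945). It was 26.2% (97 of 370) between 50% and 60% GC. Between 60% and 70% it was 14.9% (22 of 148), and between 70% and 75% it was 19.0% (15 of 79). The promoter shares in those bands were close by, at 12.3% and 21.6%. The share outside promoters was 15.4% (6 of 39) between 75% and 80% GC and 45.5% (5 of 11) at 80% or more. These numbers are too small to set against the promoter values. GC content is known to affect amplification and sequencing of ChIP libraries. Its part in the unmatched calls was not tested, and the input libraries that bear on it were not analysed here.

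Genes next to unmatched peaks were longer than those next to shared peaks. The median gene span was 47.0 kb for unmatched peaks, 24.9 kb for shared peaks and 33.6 kb for shRRN3-only peaks. Genes of 50 kb or more made up 47.5% of the unmatched and 29.1% of the shared set, 18.4 points apart (11.4 to 25.5), and near and far peaks had like shares (46.3% and 47.8%). A TSS of a long non-coding RNA lay within 1 kb of 17.8% of unmatched and 27.5% of shared peaks, a difference of −9.70 points (−15.0 to −3.54). For shRRN3-only peaks the share was 22.8%, and the difference of −4.99 points (−9.72 to 0.794) was within counting error. A further protein-coding TSS lay within 1 kb of 15.5% of unmatched and 20% of shared peaks, and this difference of −4.47 points (−9.34 to 1.36) was within counting error. Gene span, lncRNA neighbours and GC content were looked at with earlier results of these data known.

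Short words of promoter sequence were counted on both strands in the same 200 bp. The GC box, GGGCGG, to which SP and KLF factors bind, was found in 58.9% of unmatched and 53.7% of shared peaks, against 46.9% of all protein-coding TSSs, and the difference of 5.24 points (−1.99 to 12.2) includes 0. Averaged within bands of GC content, the GC box difference had the other sign, −4.25 points (−10.6 to 2.14). The CCAAT box of NF-Y was found in 15.1% of unmatched peaks, in 22.4% of shared peaks and at 25.9% of all TSSs, a difference of −7.37 points (−12.2 to −1.54). When averaged within bands of GC content the CCAAT difference was −4.63 points and its interval (−9.98 to 0.721) included 0. TATAAA, the core of the TATA box, was found in 5 unmatched peaks (2.28%) and 59 shared peaks (5.34%), a difference of −3.06 points (−5.03 to 0.119). Within bands of GC content the TATAAA difference was −2.85 points (−5.23 to −0.46). That interval is a normal approximation resting on 5 unmatched peaks, so no weight is put on its exclusion of 0. The other 7 words, those of ETS factors, NRF1, CREB, E-box factors, YY1, AP-1 and ZNF143, had differences whose intervals included 0 in this window. In a window of 500 bp those of AP-1 and ZNF143 had the other sign. In that wider window the differences of the ETS word (−7.89 points, −13.2 to −1.66) and the YY1 word (−4.03 points, −6.77 to −0.095) had intervals that excluded 0. A word found is not a bound site.

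By chromosome the unmatched share ran from 0 of 13 on chromosome 21, which allows up to 23.1%, to 11 of 29 on chromosome 7 (37.9%, 20.7 to 57.7). Chromosome 7 included the peaks of PNPLA8, of DNAJC2, a ribosome-associated chaperone gene, and of AP4M1 and MCM7, which share a start region. On chromosome 6, where histone genes are clustered, 8 of 115 were unmatched (6.96%, 3.05 to 13.2). Chromosomes 1 and 2 held the most unmatched peaks, 23 of 136 and 22 of 100.

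Among genes of the translation and RNA processing machinery, those of cytosolic ribosomal proteins and splicing factors had few unmatched peaks. Of 52 cytosolic ribosomal protein genes with a shLacZ promoter peak, 1 had an unmatched one (1.92%, 0.0487 to 10.3), set against the 16.6% of all 1514 genes. None of 18 mitochondrial ribosomal protein genes (up to 16.7%), 26 splicing factor genes (up to 11.5%) and 12 translation factor genes (up to 25%) had one. The limits for mitochondrial ribosomal protein and translation factor genes include the share of all genes. The median of the highest promoter score per gene was 87.5 for cytosolic ribosomal protein genes, 73.9 for splicing factors and 99.1 for translation factors, against 70.6 for all genes with a shLacZ promoter peak, so these lists also lay higher in score. Among 33 replication-dependent histone genes with a shLacZ promoter peak, the unmatched ones were H2AC16 and H2BC3, with gaps of only 5 and 30 bp to a shRRN3 peak.

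Genes of energy metabolism and protein turnover showed shares on either side of the background with wide intervals. In oxidative phosphorylation 4 of 13 genes had an unmatched peak (30.8%, 9.09 to 61.4). These were ATP5MC3 (67) and ATP5MG (55.8) of ATP synthase and NDUFA12 (74.92) and NDUFA8 (50.63) of complex I. Of 8 proteasome genes PSMA5 (61.09) and PSMD12 (69.31) had one, and of 5 lysosomal genes ATP6V1H (58.53), a subunit of the proton pump, had one. Among solute carriers, 2 of 17, the peak of SLC25A4, the mitochondrial ADP/ATP carrier, scored 81.32 and that of SLC36A4, an amino acid transporter, scored 80.04. In the MAP kinase list 3 of 6 genes had an unmatched peak (50%, 11.8 to 88.2), namely MAPK14, MAPK8 and MAPK1IP1L. MAPK14 and MAPK8 encode the kinases p38 alpha and JNK1, while MAPK1IP1L entered the list by its name and encodes no kinase. The MAPK14 peak of 61.84 lay 898 bp from a shRRN3 peak of 92.01.

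Lists of chromatin, cell cycle, DNA repair and zinc finger genes had shares whose intervals included the background of 16.6%. Of 14 chromatin enzyme genes with a shLacZ promoter peak, KDM5C (65.15), a histone demethylase, SIRT4 (60.16), a mitochondrial sirtuin, and SUZ12 (56.03), a subunit of Polycomb repressive complex 2, had an unmatched one (21.4%, 4.66 to 50.8). The SUZ12 peak was 72 bp from a shRRN3 peak of 123.09. BMI1 was the only one of 19 genes of Polycomb repressive complex 1 with a shLacZ promoter peak. In the cell cycle list 2 of 13 genes had an unmatched peak (15.4%, 1.92 to 45.4). MCM7, a subunit of the replicative helicase, shared its peak of 64.17 with AP4M1, and CDC123 shared its peak of 78.78 with NUDT5. In DNA repair CHEK1 (50.19), the checkpoint kinase, and ERCC2 (64.81), a helicase of nucleotide excision repair, were the 2 of 9 (22.2%). Zinc finger genes with ZNF names had 10 of 49 (20.4%, 10.2 to 34.3).

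**Figure D5:**
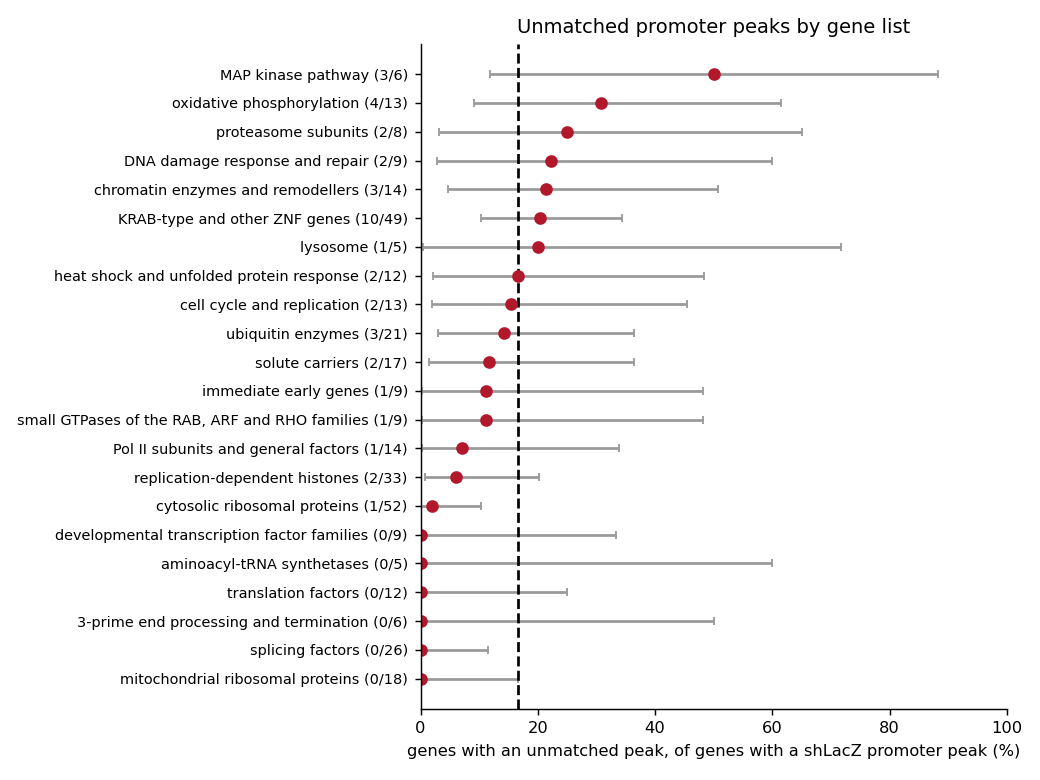
Share of genes with an unmatched peak among genes with a shLacZ promoter peak (horizontal axis, percent) for the 22 lists with at least 5 such genes, with counts; bars are exact 95% intervals, or the limit that a count of 0 allows, and the dashed line is the 16.6% of all genes. The bars of cytosolic ribosomal proteins and splicing factors end below the line, those of the other 20 lists include it, and none lies above it.

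Among the lists closest to the questions of the study, some had unmatched peaks and others had none. Those given above were BMI1 in Polycomb repressive complex 1, 1 of 5 lysosomal genes and 2 of 13 cell cycle genes. No unmatched peak lay at the 3 autophagy genes, the 2 genes of mTORC1 and its regulators, the 2 genes of the Pol I machinery, the 6 genes of 3′ end processing and termination and the 4 COMMD genes that had a shLacZ promoter peak. Counts of this size allow shares of 50% and more, so no difference from the background was detectable. PAPOLG, described above, was not in the 3′ end list. Among single genes of interest to the study, OPTN (62.34), BECN1 (84.64), RPTOR (69.84) and ATG5 (89.54), which act in autophagy or in mTORC1, had a promoter peak in shRRN3 and none in shLacZ. Over all protein-coding genes, 4754 had a promoter peak in shRRN3 and 1514 in shLacZ, so such a state was common. RRN3 and ATG16L1 had none in either list.

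COMMD3 and BMI1 lie next to each other on chromosome 10, and their promoters fell into different sets. At COMMD3 the shLacZ list had peaks of 64.14 and 64.55, and both overlapped a shRRN3 peak of 77.56, the first by 9 bases. At BMI1 the shLacZ peak of 131.29 had no shRRN3 counterpart at the promoter, and the nearest shRRN3 peak, of 56.38, lay 3734 bp away on the COMMD3 side. That shRRN3 peak was a second promoter peak of COMMD3, 487 bp downstream of its TSS, and shared no base with a shLacZ peak. The BMI1 peak lay upstream of the BMI1 TSS, in an intron of another annotated protein-coding gene. Whether its polymerase started at BMI1 or farther upstream was not tested. A single shRRN3 peak, of 54.55, lay in the BMI1 gene or the 2 kb around it. In shLacZ the BMI1 peak was thus higher in score than either COMMD3 peak, and in shRRN3 promoter peaks were called at COMMD3 only. Scores depend on depth and were not compared between libraries.

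At the limits of the selection, the peaks just inside 1 kb of a TSS were at LANCL1 (973 bp), IL18 (931 bp) and TBC1D8 (917 bp), and those just outside were nearest to SLC50A1 (1004 bp), NUDT12 (1006 bp) and PANK1 (1008 bp). The smallest gaps were at SPESP1 (2 bp), H2AC16 (5 bp) and H2BC3 (30 bp). Small overlaps among shared peaks were found at FOSL2 (5 bases), an AP-1 gene, and COMMD3 (9 bases). These values lay close together on both sides of the overlap limit.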

How the data were processed

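Pol II ChIP-seq of SK-OV-3 cells was represented by 1 peak list per hairpin. The authors made 1 call set per library, with MACS by the peak names. The deposited score was read as −log10 of the caller's p multiplied by 10, because the lists start at 50 and end at 3100. Per the labels the build was hg38. Aligner, MACS version, threshold, duplicate handling and use of input are not given in the sources used here. The other deposited columns are coordinates.

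TSSs were the 5′ ends of gene spans in GENCODE release 44. A match was 1 shared base. GC content, CG ratio and words were read from hg38 in 200 bp. Shares have exact Clopper-Pearson intervals and differences Newcombe intervals, both at 95%. Differences averaged within bands of GC content have 95% intervals from a normal approximation instead. A count of 0 was given the limit of 3 counts. Members and the 30 gene lists were chosen with earlier results of these data known. Genes named were those nearest to the 20 highest-scoring unmatched peaks, those in lists close to the study, those at the limits of the selection and 8 genes of the study, and all others were chosen after their values were seen. Some genes that this rule selects are not reported here. The code was tested on simulated peaks, and overlaps were checked with bedtools 2.31.1. Python 3.11.15, pandas 2.3.3, scipy 1.17.1, pysam 0.24.0 and matplotlib 3.10.9 were used.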

Additional observations from a re-analysis of the deposited data

How the results depend on the processing

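With 1 library per hairpin, neither a spread between replicates nor a left-out replicate could be had. No paired analysis was possible because the labels gave a single library for each group. Over 52 alternatives for 17 results, 39 moved by less than counting error and 13 by more. The sign changed in 3, for the GC box within GC bands and for AP-1 (−1.21 points) and ZNF143 (0.551 points) in windows of 500 bp, and in each the interval included 0 before and after. The unmatched share of promoter peaks (16.5%) was 19.0% with the starts of all protein-coding transcripts, 13.4% when a shRRN3 peak within 1 kb counted as a match, 43.6% when a match required 50% of each peak to be covered by the other, 19.6% with peaks set to 500 bp, 9.90% for shLacZ scores at or above the median and 43.4% against the highest-scoring shRRN3 peaks alone, cut to the length of the shLacZ list. The GC difference was 21.0 points at a threshold of 70%, and the difference in CpG island criteria was 6.40 points for far peaks. The share of genes with a shRRN3 midpoint at the TSS (16.7%) was 11.9% within 0.5 kb and 45.6% with any shRRN3 peak in the gene or 2 kb around it. The GC box difference was −4.25 points within GC bands. In windows of 500 bp the ETS and YY1 words differed by −7.89 and −4.03 points, and both of their intervals excluded 0. The difference in upstream position was −6.09 points with the starts of all protein-coding transcripts, where its interval no longer included 0. The gene span and lncRNA comparisons and their alternatives were added after the data were seen. Depth is unknown, so a peak absent from a list was not shown to be absent from the cells.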

Other observations

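Annotated gene spans start at the outermost transcript, so shLacZ peaks at internal starts lie outside the promoter set above. Of the shLacZ peaks, 385 lay within 1 kb of the start of an internal protein-coding transcript and of no gene start, and 106 of them were unmatched (27.5%, 23.1 to 32.3). Their median GC content was 46.5% and their median score 58.4, and 9 (8.49%) had a GC content of 75% or more. The highest scores were at OCIAD1 (143), an endosomal and mitochondrial membrane protein gene, TMCC1 (104.01), LITAF (103.01), a late endosomal protein gene, and PECR (100.2), a peroxisomal reductase gene. LITAF had a GC content of 81% and OCIAD1 63%, while TMCC1 had 45.5% and PECR 45%. FOXP1, a forkhead transcription factor gene, had an unmatched peak of 93.65 that lay 284 bp from a shRRN3 peak, and the peak of 88.1 at GPAM, which starts glycerolipid synthesis, lay 253002 bp from the nearest. The choice of these genes followed their values, and no difference from the gene-start promoters was tested.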
